A study of Mus musculus with 4 samples.

Results

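The genes described here are Prf1, Nkg7, Cst7, Ctsw, Srgn and Lamp1, 6 of the 32285 genes in the count tables, chosen by their symbols for their link to the granules that killer lymphocytes release. The cells are T cells sorted by flow cytometry for CD3 from subcutaneous 105K tumors, a mouse kidney tumor line without Tsc2, in C57BL/6J wild-type male mice that were 6 weeks old when injected. Control tumors (sh-NC) carried a non-targeting hairpin and knockdown tumors (sh-B7-H3 (1)) a hairpin that targets Cd276, which encodes the checkpoint protein B7-H3. The hairpin was in the tumor cells and not in the T cells. Per the labels 80 tumors of each group were pooled before the sort, and each group has 2 droplet libraries holding the RNA and the antibody tags of the same cells. The labels describe loading of duplicate lanes, the study's methods a single lane and its legends 2 independent samples per group, so whether the libraries came from 1 pool or from separate pools is not settled here. The errors and p-values of knockdown against control measure the spread between these libraries of pooled tumors, which may be technical. Where populations are compared with the library as a block, they measure the spread left within the libraries. No error or p-value below measures the spread between mice.

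Cytotoxic lymphocytes store their killing proteins in secretory lysosomes. Perforin, made from Prf1, forms pores in the membrane of the target cell, and granzymes enter the target through them. The proteoglycan serglycin (Srgn) holds these proteins in the granule, cystatin F (Cst7) inhibits the cathepsins that mature granzymes, cathepsin W (Ctsw) is a protease of cytotoxic lymphocytes, and Nkg7 and Lamp1 are granule membrane proteins. Lamp1 and Srgn are also made by many cells that do not kill. CD8 T cells are the usual carriers of the program, some CD4 T cells acquire it, and Foxp3-positive regulatory T cells (Tregs) restrain other T cells.

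The genes lie at separate places in the GRCm38 annotation. Prf1 is at chr10:61297833-61304680, Nkg7 at chr7:43437073-43438249 and Cst7 at chr2:150570415-150578944. Ctsw is at chr19:5465043-5468507 and Srgn at chr10:62493833-62527451, both on the minus strand. Lamp1 is at chr8:13159161-13175338. Ctsw overlaps the end of Fibp and Lamp1 overlaps Grtp1, each on the opposite strand. The 4 promoter windows below are the 250 bases before the RefSeq start site (build GRCm38.p6), shown because Prf1, Nkg7 and Cst7 were higher and Lamp1 lower in knockdown CD4 T cells. Capitals mark matches on either strand to 3 motifs. The core bound by RUNX factors was searched as TGTGGT. The core bound by T-box factors was searched as GGTGTG. The E-box was searched only in the form CACGTG, and other forms were not marked.
Prf1, chr10:61297586-61297835, plus strand: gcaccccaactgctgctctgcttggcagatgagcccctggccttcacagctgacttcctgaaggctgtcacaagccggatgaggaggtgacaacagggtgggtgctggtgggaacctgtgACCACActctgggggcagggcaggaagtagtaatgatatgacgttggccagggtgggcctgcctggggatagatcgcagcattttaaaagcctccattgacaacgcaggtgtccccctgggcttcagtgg
Nkg7, chr7:43436888-43437137, plus strand: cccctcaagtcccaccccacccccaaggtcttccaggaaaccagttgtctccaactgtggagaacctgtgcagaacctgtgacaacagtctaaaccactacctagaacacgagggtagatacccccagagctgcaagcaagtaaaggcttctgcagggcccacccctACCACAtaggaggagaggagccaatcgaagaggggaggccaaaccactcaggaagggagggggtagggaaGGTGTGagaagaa
Cst7, chr2:150570165-150570414, plus strand: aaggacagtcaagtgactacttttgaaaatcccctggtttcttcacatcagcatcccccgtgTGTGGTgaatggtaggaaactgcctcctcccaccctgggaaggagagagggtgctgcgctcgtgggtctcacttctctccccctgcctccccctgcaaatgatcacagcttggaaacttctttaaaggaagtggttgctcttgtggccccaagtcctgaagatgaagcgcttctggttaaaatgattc
Lamp1, chr8:13158911-13159160, plus strand: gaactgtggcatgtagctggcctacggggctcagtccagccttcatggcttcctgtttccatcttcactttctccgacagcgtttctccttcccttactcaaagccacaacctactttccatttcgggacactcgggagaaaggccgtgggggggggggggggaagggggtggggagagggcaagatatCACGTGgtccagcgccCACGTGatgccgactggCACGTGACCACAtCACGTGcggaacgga
A RUNX core began 130 bases before the start of Prf1, 83 before that of Nkg7, 188 before that of Cst7 and 22 before that of Lamp1. Ctsw and Srgn were also higher in knockdown CD4 T cells. No window of Ctsw was used here, and Srgn has windows of 2 start sites that are not printed, one with a RUNX core and one without a match to any of the 3 motifs. The RUNX core was present in 14.0% of 32851 such windows of the mouse genome. Nkg7 also held a T-box core 13 bases before its RefSeq start, a motif found in 16.3% of windows. That start, chr7:43437138, lies inside the gene as placed above, which begins at 43437073. The end of this window, with the T-box core, thus lies inside the gene by that annotation. The Lamp1 window held 4 E-boxes of the form CACGTG, at 61, 45, 28 and 15 bases before the start, and no 2 of its matches overlapped. This form was present in 6.02% of windows, and 4 or more in 7 of them (0.0213%). These are matches of letters and do not show that a factor binds.

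The libraries held 7030 to 12112 called cells and 79224898 to 132820909 RNA molecules, counted as unique molecular identifiers (UMIs). After limits on genes and mitochondrial UMIs and removal of likely doublets, 16226 cells were kept. CD4 T cells (at least 1 Cd4 UMI and none of Cd8a or Cd8b1) numbered 1409 and 1220 in control libraries 1 and 2 and 684 and 764 in knockdown libraries 1 and 2. CD8 T cells (at least 3 UMIs of Cd8a and Cd8b1 and none of Cd4) numbered 2347 and 1999 in the controls and 1105 and 1322 in the knockdown. Foxp3 cells, the CD4 T cells with at least 1 Foxp3 UMI, numbered 128 and 131 in the controls and 90 and 77 in the knockdown. The median depth of a cell was lower in the knockdown libraries, 6766 to 6845 UMIs against 8559 to 8888 in CD8 T cells. Cd276 had 9 to 11 UMIs per library in all called cells, too few to check the knockdown, which was made in the tumor cells. Pairs of libraries shared 17 to 35 cell barcodes.

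The first comparison asked how the granule genes differ between T cells of knockdown and control tumors. In CD4 T cells Nkg7 rose 5.87-fold and Cst7 2.52-fold in the knockdown. Prf1, Ctsw and Srgn were higher and Lamp1 was lower with an adjusted p under 0.05, but each by less than the limit of an absolute log2 fold change of 1 that a call also needs. In CD8 T cells only Nkg7 of the 6 genes was called, with a 2.50-fold rise, and in Foxp3 cells only Nkg7, with a 5.28-fold rise. UMIs were summed over the cells of a library and population, given as counts scaled to a common total (CPM) and put through the quasi-likelihood test of edgeR across all genes (n = 2 libraries per group). A higher summed level can come from more cells with the transcript or more transcript per cell, which the shares of cells further down address.

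The background of these calls was large in CD4 and CD8 T cells. Of 10789 genes tested in CD4 T cells 6.53% rose and 2.1% fell, and at an adjusted p alone 18.1% were higher and 16.9% lower. By p alone 5 of the 6 granule genes were higher there and 1 was lower, and 2 of 6 were called. Among CD8 T cells 6.71% of 11329 genes rose and 1.89% fell, against 1 of 6 granule genes called, and at an adjusted p alone 19.9% were higher and 19.5% lower, against 4 and 1 of the 6. In Foxp3 cells 0.333% of 6614 genes rose and 0.0605% fell, and 1 of the 6 was called. The median log2 fold change of the 6 genes was 0.80 in CD4 T cells, 0.42 in CD8 T cells and 0.26 in Foxp3 cells, while the median of all genes was near 0 in each (0.00 in CD8 T cells).

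**Figure D1:**
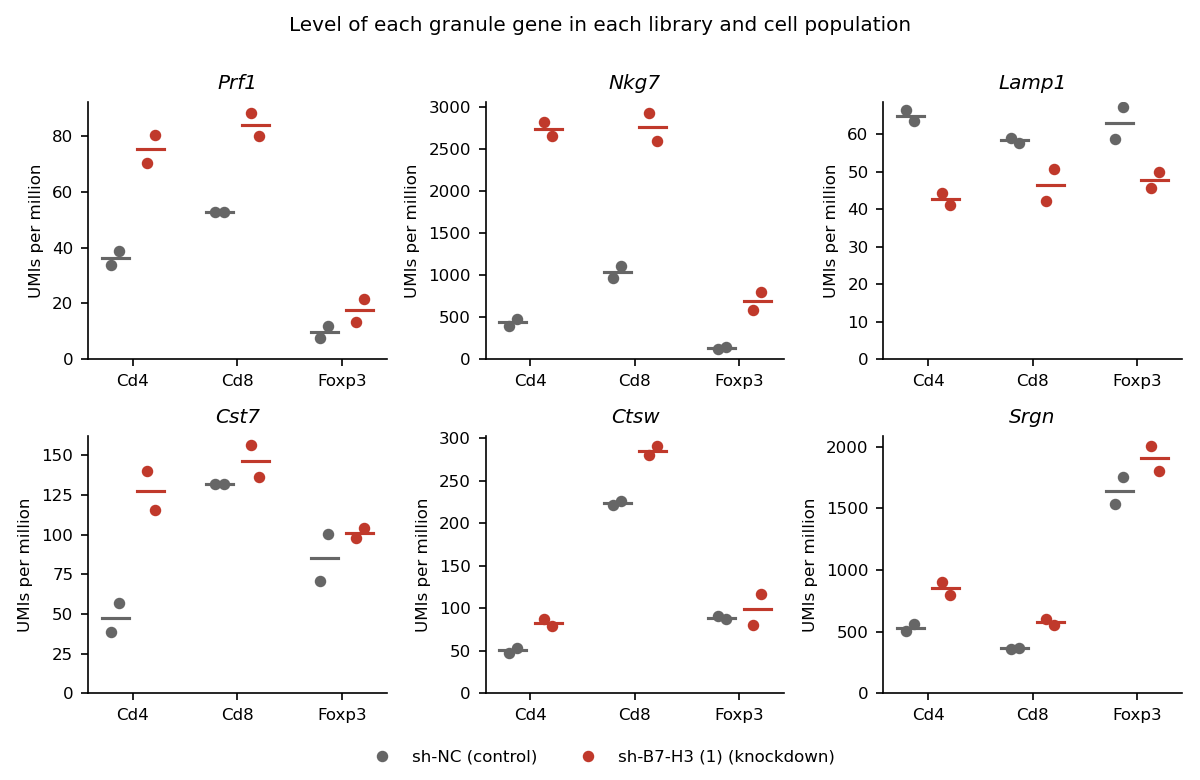
Summed level of each gene in CPM (vertical axis, 1 panel per gene) in CD4, CD8 and Foxp3 cells, with 1 point per library in the control and knockdown groups and a bar at the group mean. Nkg7 lies between 397 and 478 in control and between 2652 and 2819 in knockdown CD4 T cells, while Lamp1 lies lower in the knockdown than in the control in all 3 populations.

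Prf1, the pore-forming protein, stood at 33.9 and 38.7 CPM in control libraries 1 and 2 and at 70.4 and 80.3 CPM in knockdown libraries 1 and 2 of CD4 T cells. Both knockdown values lay above both control values, a log2 difference of 0.97 ± 0.09 (SE, edgeR adjusted p = 3.0e-08), just under the fold limit. The CD8 T cell level of Prf1 was 52.6 and 52.8 CPM in the controls and 88.2 and 79.8 CPM in the knockdown (log2 difference 0.58 ± 0.06, edgeR adjusted p = 4.6e-08). In Foxp3 cells 7 to 11 Prf1 UMIs per library gave 7.47 and 11.8 CPM in the controls and 13.5 and 21.7 CPM in the knockdown, a difference that was not detectable at this depth (0.86 ± 0.50, edgeR adjusted p = 0.54). The Prf1 level of control CD4 T cells was close to that of free RNA, since barcodes with 1 to 100 UMIs that were not called as cells held 34.7 and 38.3 CPM of Prf1 in the control libraries and 47.3 and 50.4 CPM in the knockdown libraries.

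Nkg7 encodes a granule membrane protein of killer cells that is needed for full release of the granules. In CD4 T cells it stood at 397 and 478 CPM in the controls and at 2819 and 2652 CPM in the knockdown (log2 difference 2.55 ± 0.06, edgeR adjusted p = 1.2e-17). Within CD8 T cells it stood at 967 and 1109 CPM in the controls and at 2926 and 2595 CPM in the knockdown (1.32 ± 0.06, edgeR adjusted p = 4.5e-13). In Foxp3 cells the values were 126 and 140.1 CPM in the controls and 582 and 803 CPM in the knockdown (2.40 ± 0.15, edgeR adjusted p = 2.7e-09). The groups did not overlap in any of the 3 populations. Free RNA held 538 and 557 CPM of Nkg7 in the control libraries and 1389 and 1381 CPM in the knockdown libraries, so the make-up of free RNA moved with the group as well. Knockdown CD4 T cells and CD8 T cells of both groups lay above these CPM values, while control CD4 T cells and Foxp3 cells of both groups lay below them. This order does not tell how much of the Nkg7 of a cell came from free RNA.

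Cst7, the cathepsin inhibitor, stood at 38.5 and 56.7 CPM in control and at 139.7 and 115 CPM in knockdown CD4 T cells (log2 difference 1.33 ± 0.11, edgeR adjusted p = 4.3e-09). Its CD8 T cell level was 131.9 CPM in both controls and 156 and 136 CPM in the knockdown, a difference within the spread of the knockdown libraries (0.05 ± 0.05, edgeR adjusted p = 0.42). In Foxp3 cells the control values of 70.5 and 100.5 CPM overlapped the knockdown values of 97.9 and 104 CPM (edgeR adjusted p = 0.64). Free RNA held 83.6 to 88.4 CPM of Cst7 over the 4 libraries, above the control and below the knockdown CD4 T cells.

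Ctsw, the lymphocyte cathepsin, stood at 47.9 and 53.2 CPM in control and at 87.6 and 78.8 CPM in knockdown CD4 T cells (log2 difference 0.62 ± 0.08, edgeR adjusted p = 1.4e-06). In CD8 T cells it was 221 and 226 CPM in the controls and 280.2 and 291 CPM in the knockdown (0.26 ± 0.04, edgeR adjusted p = 7.2e-05). Both differences were larger than the spread between libraries and smaller than the fold limit. In Foxp3 cells the groups overlapped, at 90.8 and 87.7 CPM against 81.0 and 117 CPM (edgeR adjusted p = 0.82). Free RNA held 247 and 296 CPM of Ctsw in the control libraries and 233 and 216 CPM in the knockdown libraries. In the controls this was above CD4, CD8 and Foxp3 cells, and in the knockdown above CD4 and Foxp3 cells and below CD8 T cells.

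Srgn, the granule proteoglycan, stood at 505 and 563 CPM in control and at 907 and 800.2 CPM in knockdown CD4 T cells (log2 difference 0.58 ± 0.05, edgeR adjusted p = 2.2e-08). Among CD8 T cells it was 357 and 372 CPM in the controls and 604 and 551 CPM in the knockdown (0.57 ± 0.04, edgeR adjusted p = 2.1e-09). In Foxp3 cells it was 1534 and 1753.5 CPM in the controls and 2006 and 1806 CPM in the knockdown (0.25 ± 0.11, edgeR adjusted p = 0.39). Its highest level in either group was thus in Foxp3 cells. Free RNA held 349 and 369 CPM of Srgn in the control libraries, about the level of control CD8 T cells, and 497 and 506 CPM in the knockdown libraries, so the make-up of free RNA moved with the group here too.

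Lamp1, the abundant glycoprotein of the lysosomal membrane, went the other way. It stood at 66.4 and 63.5 CPM in control and at 44.3 and 41.1 CPM in knockdown CD4 T cells (log2 difference -0.70 ± 0.08, edgeR adjusted p = 7.5e-07). The CD8 T cell values were 59.1 and 57.7 CPM in the controls and 42.1 and 50.7 CPM in the knockdown (-0.41 ± 0.07, edgeR adjusted p = 0.00017). In Foxp3 cells 23 to 63 UMIs per library gave 58.7 and 67.4 CPM in the controls and 45.6 and 49.9 CPM in the knockdown (-0.37 ± 0.24, edgeR adjusted p = 0.59). The groups did not overlap in any population, which is easily reached with 2 libraries per group, and in none was the difference past the fold limit. Free RNA held 56.4 and 54.5 CPM of Lamp1 in the control libraries and 61.6 and 45.6 CPM in the knockdown libraries, above the knockdown CD4 T cells of the same library.

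The libraries of the groups also differed in markers of resting cells. The summed level of 3 naive T cell markers (Ccr7, Lef1 and S1pr1) was 632 to 654 CPM in control and 309 to 322 CPM in knockdown CD4 T cells. Within CD8 T cells it was 487 to 504 CPM against 233 to 258 CPM, and in Foxp3 cells 313 to 339.6 CPM against 180.2 to 224 CPM. All 3 markers were lower in each population with no overlap between the groups. Groups of 2 libraries fail to overlap easily, with an exact permutation p of 0.333 at best. The share of all genes without overlap is not given, here, for the granule genes above or for the marker lists below. As an alternative added after the data were examined, the tests were repeated on cells without a Ccr7 or Lef1 UMI, which left 222 and 220 control and 394 and 412 knockdown CD4 T cells. Of the 6 genes none was called in these CD4 T cells by edgeR or DESeq2, and 5 had an unadjusted p under 0.05 by edgeR, against 22.9% of 9016 genes. Nkg7 differed there by 0.94, just below the fold limit (edgeR adjusted p = 3.9e-14), and Cst7 by 0.36 (edgeR adjusted p = 0.036). Prf1 differed by 0.53 (edgeR adjusted p = 0.0039), Ctsw by 0.08 (edgeR adjusted p = 0.74) and Lamp1 by -0.49 (edgeR adjusted p = 0.044), while Srgn was lower in the knockdown by 0.32 (log2 difference -0.32, edgeR adjusted p = 0.00017). Thus without these cells the CD4 values of all 6 genes lay within the fold limit. Of the 6 genes in CD8 T cells without these markers none was called by edgeR or DESeq2 either, and 3 had an unadjusted p under 0.05 by edgeR, against 23.0% of 9479 genes. There Nkg7 differed by 0.36 (edgeR adjusted p = 5.2e-07) and Lamp1 by -0.55 (edgeR adjusted p = 0.0011). Prf1 differed by 0.24 (edgeR adjusted p = 0.062), and Cst7, Ctsw and Srgn by -0.11 to -0.04. In Foxp3 cells without them, 51 to 61 per library, Nkg7 rose by a log2 value of 2.44 (edgeR adjusted p = 4.9e-05). Cells with few UMIs lack Ccr7 and Lef1 more easily, and the part of depth in this selection was not tested.

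**Figure D2:**
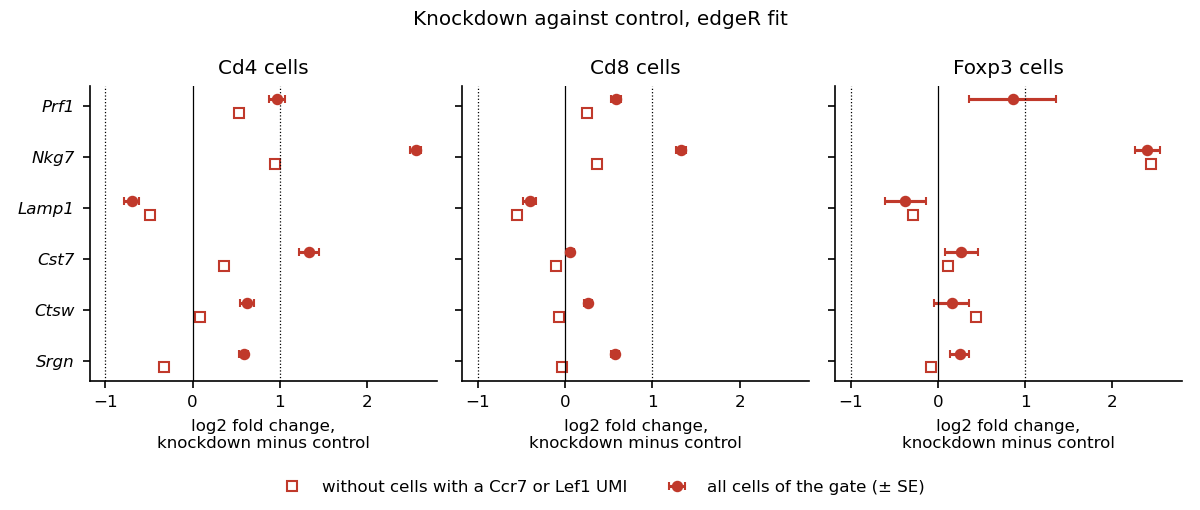
Log2 fold change of each gene (horizontal axis), knockdown minus control, in CD4, CD8 and Foxp3 cells. Filled points with bars show all cells of the population ± SE, open squares the cells without a Ccr7 or Lef1 UMI, and dotted lines the fold limit, and in CD4 T cells the square of Nkg7 lies at 0.94 against 2.55 for all cells.

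Markers of other lymphocytes moved with the group too. The summed level of 5 gamma-delta T cell markers was 28.1 to 34.0 CPM in control and 123.4 to 123.6 CPM in knockdown CD4 T cells, and 35.2 to 47.8 against 143.7 to 166 CPM in CD8 T cells, with Trdv4 at 0 in all libraries. The 3 gamma-chain genes were higher in CD4 T cells without overlap, while the delta-chain gene Trdc overlapped between the groups, at 7.66 and 4.24 against 3.49 and 5.09 CPM. In CD8 T cells 4 of the 5, Trdc among them, were higher. The sum of 6 natural killer cell markers went from 6.57 to 9.44 CPM in control to 34.7 to 36.2 CPM in knockdown CD4 T cells, with Ncr1, Klra4 and Klra8 at 0 in all libraries. In CD8 T cells it went from 7.003 to 9.53 CPM to 39.4 to 54.5 CPM, with Ncr1 at 0. Klre1 made up nearly all of both knockdown sums and was the 1 marker of the list that was higher without overlap. Klrb1c was lower without overlap in both populations and Klra9 in CD8 T cells. Both rest on few molecules, with 3 and 5 Klrb1c UMIs in control CD4 and 18 and 16 in control CD8 T cells. Klra9 had 25 and 21 UMIs there, in 4 and 5 cells. Without cells that held a gamma-delta marker, an alternative added after the data were examined, the log2 fold change of Nkg7 was 2.95 in CD4 T cells, 1.30 in CD8 T cells and 2.00 in Foxp3 cells, and it was called in each. The cells were sorted for CD3, which natural killer cells lack, and whether natural killer cells were among them was not tested. The sum of 4 Treg markers went from 25.0 to 31.5 CPM in control to 104 to 111 CPM in knockdown CD8 T cells, mostly by Ikzf2. In CD4 T cells it went from 209.8 to 265 CPM to 375 to 465 CPM, where only 1 of the 4 was higher without overlap. The sum of 8 myeloid markers was 24.6 to 25.8 CPM in control and 40.8 to 58.6 CPM in knockdown CD4 T cells, 11.8 to 36.9 against 42.0 to 69.6 CPM in CD8 T cells and 31.0 to 34.2 against 59.1 to 73.8 CPM in Foxp3 cells, and its part in the results was not tested beyond the alternative without cells of other types. The sum of the T cell markers Cd3d, Cd3e, Cd3g and Trac also moved with the group, from 3628 to 3690 CPM in control to 5234 to 5456 CPM in knockdown CD4 T cells and from 3487 to 3608 to 4527 to 4895 CPM in CD8 T cells. All 4 were higher without overlap in CD8 T cells, while in CD4 T cells the 3 Cd3 genes were higher and Trac was lower, at 804 and 826 against 801 and 752 CPM.

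The next comparison asked whether more cells held the transcripts or each cell held more. Cells were thinned to 2000 UMIs so that depth was equal. The draw was random and was not repeated for a population at this depth, so its own error was not measured. Each group had 2 libraries, so the two-sided exact permutation test could not go below p = 0.333, the value for every gene whose groups did not overlap. The share of CD4 T cells with an Nkg7 UMI was 10.9% and 11.98% in the controls and 55.5% and 54.3% in the knockdown, with Wilson 95% intervals of 9.36 to 13.9% and 50.7 to 59.2% that cover counting error only. Among CD8 T cells the share was 66.3% and 69.7% in the controls and 87.1% and 85.9% in the knockdown. In Foxp3 cells it was 10.9% and 9.92% in the controls and 34.4% and 35.5% in the knockdown. As a reference, chosen after the data were examined, resting CD4 T cells (at least 1 UMI of Ccr7 and of Lef1, none of Cd44 or Foxp3) held an Nkg7 UMI in 2.10% and 1.42% of control cells and in 11.5% and 10.4% of knockdown cells. None of these control cells and 1 and 3 of the knockdown cells reached 3 Nkg7 UMIs. The reference cells were part of the CD4 T cells, 667 of 1409 and 565 of 1220 in the controls. In the knockdown they were 130 of 684 and 165 of 764.

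Unthinned, 15.8% and 17.6% of control and 66.5% and 66.8% of knockdown CD4 T cells held an Nkg7 UMI. The unthinned shares of CD8 T cells were 93.9% and 96.1% in the controls and 98.2% and 97.8% in the knockdown. At 2000 UMIs, the CD4 T cells with an Nkg7 UMI held 8.57 of them on average in the controls and 10.3 in the knockdown. For CD8 T cells with an Nkg7 UMI the mean number went from 3.68 in the controls to 7.61 in the knockdown, and in Foxp3 cells from 2.34 to 4.35. Cells with 11 or more Nkg7 UMIs made up 3.27% and 5.00% of control and 26.1% and 26.2% of knockdown CD4 T cells. Within CD8 T cells they made up 4.78% and 6.52% of the controls and 26.0% and 23.3% of the knockdown, while cells with 1 or 2 Nkg7 UMIs went from 42.0% and 41.7% to 19.5% and 23.4%. In CD4 T cells the difference thus lay mostly in the share of cells with the transcript. In CD8 T cells it lay mostly in the number of UMIs per cell, since unthinned nearly all cells of both groups held the transcript.

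**Figure D3:**
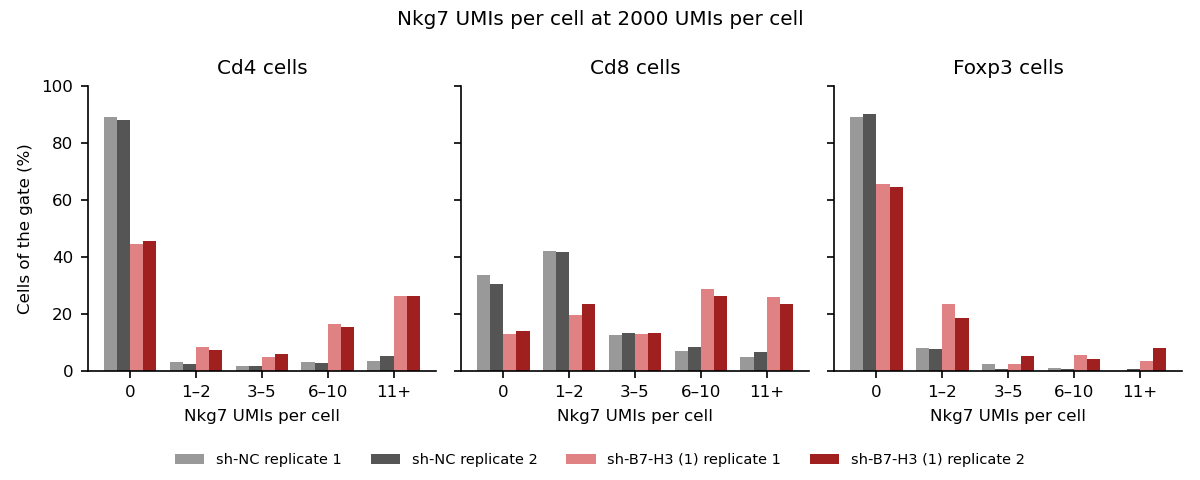
Percent of cells (vertical axis) by number of Nkg7 UMIs after thinning to 2000 UMIs, per library, in CD4, CD8 and Foxp3 cells. The bin without an Nkg7 UMI holds 88.0 to 89.1% of control and 44.5 to 45.7% of knockdown CD4 T cells, and the bin of 11 or more holds 26.0% and 23.3% of knockdown CD8 T cells.

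For Prf1 the share of CD4 T cells with a UMI was 7.61% and 6.65% in the controls and 10.98% and 11.7% in the knockdown. Resting reference cells held Prf1 in 5.397% and 4.78% of control and 3.85% and 7.32% of knockdown cells, and the control CD4 share lay close to that of the reference. This closeness was partly built in, since the reference cells made up a larger part of the CD4 T cells in the controls. Of CD8 T cells Prf1 was present in 10.4% and 9.92% of control and 15.5% and 14.1% of knockdown cells. In Foxp3 cells 1 to 3 cells per library held a Prf1 UMI, a smaller share than in the reference cells of the same library. The reference share of Prf1 is thus not a floor. Cst7 was present in 6.90% and 9.27% of control and 21.4% and 18.3% of knockdown CD4 T cells, and in 22.9% to 23.0% of control and 22.8% to 27.4% of knockdown CD8 T cells, where the groups overlapped (exact permutation p = 1). Srgn was present in 45.6% and 47.3% of control and 64.0% and 64.0% of knockdown CD4 T cells, and in 46.6% and 47.4% against 64.1% and 60.6% of CD8 T cells. Unthinned, its CD4 shares were 81.7% and 83.9% against 88.2% and 85.3%. Those of CD8 T cells were 87.4% and 88.7% against 92.6% and 91.4%. The thinned difference of Srgn is thus not to be read as more cells with the transcript alone. Ctsw was present in 7.895% and 9.52% against 13.2% and 13.0% of CD4 T cells and in 34.5% and 35.0% against 40.9% and 42.6% of CD8 T cells. Unthinned, its CD8 shares overlapped, at 75.5% and 78.2% against 76.1% and 77.8%. The Ctsw shares also vary with the draw, and a draw of CD4 T cells without Foxp3 gave 17.5% and 11.1% in the knockdown. Lamp1 was present in 12.02% and 11.6% of control and 7.72% and 8.20% of knockdown CD4 T cells, and in 11.8% and 11.03% against 8.01% and 10.5% of CD8 T cells. The resting reference cells held Lamp1 in 7.32% to 12.9%, Ctsw in 6.15% to 8.54%, Cst7 in 2.31% to 5.31% and Srgn in 29.3% to 38.4% of cells over the 4 libraries. The Lamp1 shares of CD4 and CD8 T cells thus lay within the range of the reference, and no difference was read from them, while the Ctsw share of control CD4 T cells lay in or next to it. For CD4 T cells this closeness was partly built in as well. In Foxp3 cells Cst7 was present in 10.9% and 13.7% against 20% and 17.1%, Ctsw in 15.6% and 14.5% against 16.7% and 14.5%, and Srgn in 69.5% and 79.4% against 82.2% and 76.3% of cells, and the groups overlapped for Ctsw and Srgn. There the Lamp1 share went against its CPM, so no order was read from it.

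Within a cell, 4 or more of the 6 transcripts were detected in 1.99% and 2.38% of control and 6.97% and 7.12% of knockdown CD4 T cells. In CD8 T cells the shares were 10.0% and 10.3% against 17.6% and 16.0%. None of the 6 was detected in 38.2% and 36.9% of control and 20.5% and 19.8% of knockdown CD4 T cells. Among CD4 T cells with a Prf1 UMI, 25.2% and 34.6% of control and 89.2% and 83.9% of knockdown cells also held Nkg7, against 9.70% and 10.4% and then 51.3% and 50.4% of cells without Prf1. The granzyme gene Gzmk was found in 16.8% and 17.3% of control and 28.4% and 39.1% of knockdown CD4 T cells with Prf1, and Gzmb in 3.74% and 9.88% against 5.41% and 4.60%. Gzmk in CD4 T cells without a Prf1 UMI at this depth was found in 4.54% and 4.75% against 19.5% and 20.2%. Such cells may still hold Prf1, since unthinned 24.3% and 27.5% of knockdown CD4 T cells had a Prf1 UMI. Whether the Gzmk difference reaches beyond cells that make Prf1 can thus not be read from these shares. Among CD8 T cells with Prf1, Gzmb was found in 12.3% and 18.7% of control and 25.3% and 24.3% of knockdown cells, and Gzmk in 17.2% and 25.3% against 37.1% and 33.0%. In those without Prf1, Gzmb was found in 4.67% and 6.40% against 15.3% and 14.6%, and Gzmk in 7.296% and 9.24% against 27.3% and 26.7%. The cytokine gene Ifng was found in 7.48% and 16.0% of control and 43.2% and 25.3% of knockdown CD4 T cells with Prf1, and in 8.20% and 13.1% against 22.4% and 23.8% of such CD8 T cells. Without Prf1 its shares were 3.54% and 3.95% against 17.2% and 15.1% of CD4 and 2.58% and 4.12% against 17.1% and 16.1% of CD8 T cells.

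**Figure D4:**
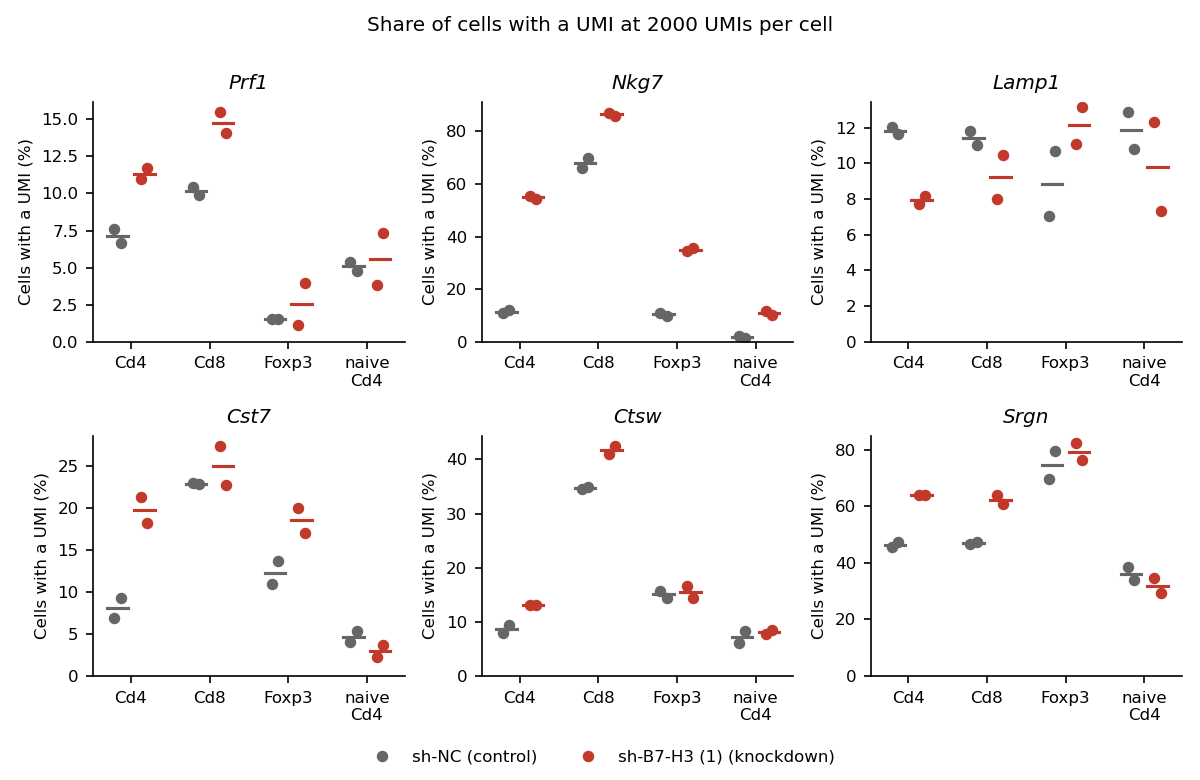
Percent of cells with at least 1 UMI of each gene (vertical axis) after thinning to 2000 UMIs, per library, in CD4, CD8 and Foxp3 cells and in resting reference cells. The Nkg7 points of CD4 T cells go from 10.9% and 11.98% in the control to 55.5% and 54.3% in the knockdown, while those of Prf1 reach at most 15.5%, in knockdown CD8 T cells.

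The following comparison asked how the populations differ from each other within a library. All 12 sums (4 libraries by CD8 T cells, Foxp3 cells and CD4 T cells without Foxp3) were fitted together with the library as a block. In control tumors Nkg7, Cst7 and Ctsw were higher in CD8 than in CD4 T cells, with log2 differences of 1.30 ± 0.06, 1.75 ± 0.07 and 2.41 ± 0.06 (SE). These 3 of the 6 genes were called higher there and none lower, against 2.08% and 3.42% of 11625 genes. Prf1 differed by 0.59 ± 0.07 (edgeR adjusted p = 2.7e-08), below the fold limit, and Srgn and Lamp1 by -0.07 and -0.01 (edgeR adjusted p = 0.43 and 0.94). In knockdown tumors only Ctsw was called higher in CD8 T cells (1.97 ± 0.06), where 1.72% of genes were called higher and 2.46% lower. Nkg7 there differed between CD8 and CD4 T cells by 0.04 ± 0.06 (edgeR adjusted p = 0.79), at 2760 against 2993 CPM on average, so that TMM scaling and CPM gave opposite signs and no order was read from it (-0.12 with total count scaling). Prf1 differed by 0.17 ± 0.08 (edgeR adjusted p = 0.15). Cst7 differed by 0.32 ± 0.07, Lamp1 by 0.31 ± 0.10 and Srgn by -0.17 ± 0.05, all below the fold limit. Over 4 alternatives these ranged from 0.01 to 0.29, from 0.15 to 0.63 and from -0.32 to -0.19. By CPM Lamp1 was higher in CD8 T cells in 1 of 2 knockdown libraries. In cells without a Ccr7 or Lef1 UMI the control differences of Nkg7 and Cst7 were 0.22 and 0.41 and no longer called (edgeR adjusted p = 0.057 and 0.011), and those of Prf1 and Lamp1 were -0.03 and 0.65 (edgeR adjusted p = 0.94 and 0.0038), while Ctsw was still called (1.93).

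Foxp3 cells had less Prf1 and Nkg7 and more Srgn than the other CD4 T cells in both groups. In the controls the log2 differences were -2.35 ± 0.27 for Prf1, -2.14 ± 0.11 for Nkg7 and 1.63 ± 0.06 for Srgn, with 6.37% of genes called higher and 3.35% lower. In the knockdown they were -2.48 ± 0.26, -2.33 ± 0.09 and 1.20 ± 0.06, with 3.9% of genes called higher and 2.51% lower. Cst7 and Ctsw differed by 0.64 ± 0.16 and 0.60 ± 0.14 in the controls and by -0.59 ± 0.17 and 0.05 ± 0.16 in the knockdown, none past the fold limit. Lamp1 differed by -0.38 ± 0.14 and -0.01 ± 0.22, at 63.0 against 65.1 and 47.7 against 42.2 CPM on average, and its control value was -0.05 with total count scaling, so no order was read from it. Once cells with a Ccr7 or Lef1 UMI were left out, 53 and 61 Foxp3 cells remained in control libraries 1 and 2. There the control differences of Prf1 and Nkg7 were -3.996 and -4.17. Before this selection the Foxp3 cells of these libraries held 7 and 11 Prf1 UMIs. The control differences of Cst7 and Ctsw turned to -0.61 and -0.51 (edgeR adjusted p = 0.017 and 0.14), and that of Srgn was 0.95 and no longer called. The order of Srgn was thus Foxp3 cells first, with CD4 and CD8 T cells within the fold limit of each other. Ctsw was highest in CD8 T cells in both groups.

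**Figure D5:**
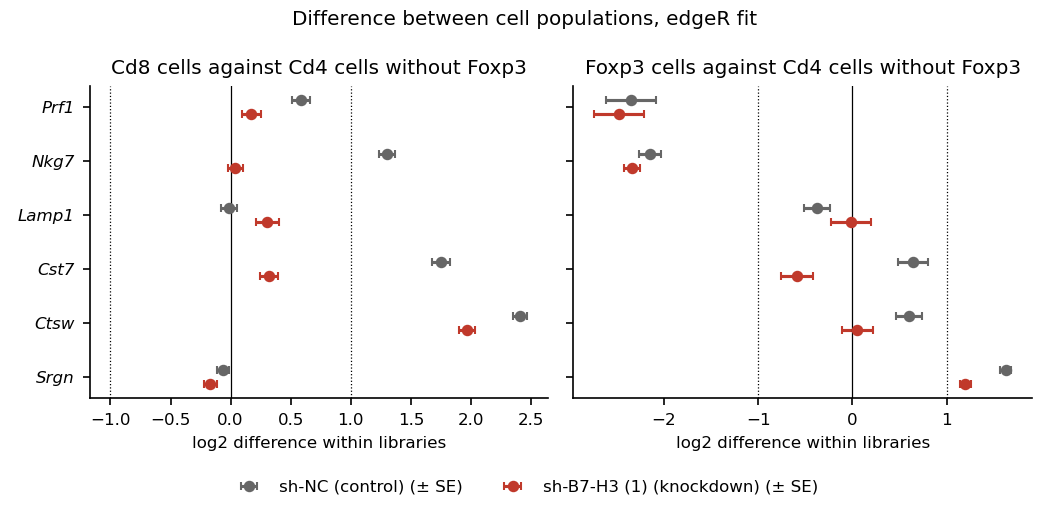
Log2 difference of each gene (horizontal axis) between CD8 T cells or Foxp3 cells and CD4 T cells without Foxp3, fitted within libraries, as points ± SE for control and knockdown. Nkg7 lies at 1.30 in the control and at 0.04 in the knockdown for CD8 minus CD4 T cells, and Srgn lies at 1.63 and 1.20 for Foxp3 minus CD4 T cells.

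The difference of the knockdown effect between populations was tested as an interaction in the same fit, at an adjusted p under 0.05. The effect in CD8 T cells was smaller than in CD4 T cells by a log2 value of 1.26 for Nkg7 (interaction -1.26 ± 0.09, edgeR adjusted p = 3.5e-14). For Cst7 the interaction was -1.43 ± 0.11 (edgeR adjusted p = 1.1e-13), for Ctsw -0.44 ± 0.10 (edgeR adjusted p = 0.0028) and for Prf1 -0.41 ± 0.11 (edgeR adjusted p = 0.025). The effects on Srgn and Lamp1 differed by -0.10 and 0.32, which did not pass (edgeR adjusted p = 0.69 and 0.20), although that of Lamp1 passed with no doublet removal (0.33, edgeR adjusted p = 0.035). Over all genes 1.08% had a larger and 1.37% a smaller effect in CD8 T cells. Between Foxp3 cells and the other CD4 T cells the interaction passed for Cst7 (-1.23 ± 0.23, edgeR adjusted p = 0.00061) and Srgn (-0.43 ± 0.08, edgeR adjusted p = 0.00076), against 0.895% of genes with a larger and 2.05% with a smaller effect in Foxp3 cells. For Nkg7 it was -0.19 ± 0.16 (edgeR adjusted p = 0.71), for Ctsw -0.55 ± 0.21 (edgeR adjusted p = 0.19), for Lamp1 0.36 ± 0.26 and for Prf1 -0.13 ± 0.50 (edgeR adjusted p = 0.63 and 0.96). That of Ctsw passed with no upper gene limit (-0.77, edgeR adjusted p = 0.0084). Without cells with a Ccr7 or Lef1 UMI no CD8 interaction of the 6 genes passed, with values of -0.30 for Nkg7, -0.40 for Cst7, -0.02 for Ctsw and -0.004 for Prf1 (edgeR adjusted p = 0.32, 0.34, 0.99 and 1). There the Foxp3 interaction of Cst7 was -0.19 (edgeR adjusted p = 0.89), that of Srgn changed sign to 0.11 (edgeR adjusted p = 0.85), and that of Nkg7 passed at 1.76 (edgeR adjusted p = 6.8e-10).

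The LAMP-1 (CD107a) antibody tag measures the protein of Lamp1 on the cell surface, where it appears when granules fuse with the membrane. Among CD8 T cells the tag stood at 535 and 548 CPM of all tags in the controls and at 841 and 817 in the knockdown. Scaled by TMM over 197 named tags its log2 fold change was 0.19 ± 0.04 (edgeR adjusted p = 0.025), and 33% of tags were higher at an adjusted p under 0.05. In CD4 T cells it stood at 695 and 646 CPM in the controls and at 795 and 886 in the knockdown, a log2 difference of 0.05 ± 0.06 (edgeR adjusted p = 0.47), with 23.9% of tags higher. In Foxp3 cells it stood at 809 and 847 against 976 and 1379 CPM (0.24 ± 0.18, edgeR adjusted p = 0.38), with 14.2% of tags higher. Scaled by total tag counts, an alternative added after the data were examined, the values were 0.62 in CD8 T cells, 0.33 in CD4 T cells and 0.50 in Foxp3 cells, while the median of all tags shifted by 0.46, 0.28 and 0.25. With that scaling the tag passed in CD8 and in CD4 T cells (edgeR adjusted p = 0.00029 and 0.019) and not in Foxp3 cells (edgeR adjusted p = 0.056). The tag ranked 115 to 142 of 197 by count, and 0 or 1 of the 9 isotype control tags lay above it in each library. The Lamp1 transcript was lower in the knockdown of CD8 T cells (-0.41) while the tag was not.

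Other genes of the granule pathway were read from lists of granzymes, of transport and fusion proteins, of proteases and their inhibitors, and of lysosome and matrix proteins. Their counts are to be read against all genes, of which 6.53% rose and 2.1% fell in CD4 T cells, 6.71% and 1.89% in CD8 T cells and 0.333% and 0.0605% in Foxp3 cells. Of 9 granzyme genes 3 were tested in CD4 T cells and Gzmk rose, from 43.0 and 46.5 CPM to 138 and 145 CPM (log2 difference 1.57 ± 0.07, edgeR adjusted p = 1.7e-13). Gzmb, the granzyme that cleaves caspases, did not pass the fold limit in CD4 T cells, at 32.6 and 50.5 CPM against 35.7 and 25.3 CPM (-0.54 ± 0.16, edgeR adjusted p = 0.013). Nor did Gzma, the other granzyme tested there, at 10.8 and 5.05 CPM against 4.36 and 4.70 CPM (-0.91 ± 0.33, edgeR adjusted p = 0.035). For CD8 T cells 2 of 4 tested granzymes rose, Gzmk (1.66 ± 0.06) and Gzmb (1.30 ± 0.08), the latter from 52.1 and 68.8 CPM to 146 and 167 CPM (edgeR adjusted p = 1.4e-10). In Foxp3 cells Gzmk rose from 6.41 and 6.42 CPM to 21.9 and 49.9 CPM by edgeR (adjusted p = 0.021) and was not called by DESeq2, and the Gzmb groups overlapped (-0.94 ± 0.26, edgeR adjusted p = 0.12).

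Of 26 transport and fusion genes 24 were tested in CD4 T cells and only Sytl3, a synaptotagmin-like protein, was called (log2 fold change 1.80 ± 0.15), a share no larger than the 6.53% of all genes that rose there. Within CD8 T cells 3 of 25 rose, against 6.71% of all genes. These were Stx11, a syntaxin needed for granule release (1.42 ± 0.19), Sytl2 (1.29 ± 0.09) and Rab27a, the GTPase that docks granules (1.04 ± 0.08), the last of which was named after its value was seen. None of 24 was called in Foxp3 cells by edgeR or DESeq2, and 0 had an unadjusted p under 0.05. Among 14 protease and inhibitor genes Ctsc, the cathepsin that activates granzymes, and Ctsd rose in CD4 T cells (1.13 ± 0.07 and 1.05 ± 0.05), 2 of 13 tested, against 6.53% of all genes. In Foxp3 cells none of 8 tested was called by edgeR or DESeq2, and 3 had an unadjusted p under 0.05, against 11.4% of all genes. Ctsh was called higher in CD8 T cells on 0.19 to 4.14 CPM with overlapping groups, and Serpinb1a fell from 1.64 and 1.55 CPM to 0.125 and 0.514 CPM. Of 20 lysosome and matrix genes in the tables only the chemokine gene Ccl5, whose product is stored in granules, was called. It rose in all 3 populations, by log2 values of 2.05 ± 0.08, 2.19 ± 0.08 and 1.70 ± 0.13 in CD4, CD8 and Foxp3 cells. The median log2 fold change of the transport list was 0.17 in CD4, 0.12 in CD8 and -0.04 in Foxp3 cells, and that of the lysosome and matrix list 0.19, 0.15 and 0.12. For the protease and inhibitor list it was 0.39, 0.34 and 0.31, and for the 3, 4 and 2 tested granzymes -0.54, 0.80 and 0.75.

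Over the same 12 sums, the genes with the pattern most like that of each granule gene were found by Pearson's r of log2 CPM among 4610 genes, as a description of sums that share libraries. For Prf1 they were Cd96 (r = 0.98), Slc20a1 and Rnf166 (both 0.97). For Nkg7 they were the chemokine receptor gene Cxcr6 (0.99), Fasl (0.98), the gene of the death ligand, and Eomes (0.98), a T-box factor of killer lymphocytes. For Ctsw they were Cd8a, Cd8b1 and Ifi27 (all 0.96), with the CD8 genes used to define the populations. For Srgn they were Serinc3, Tmem123 and Sh3bgrl (all 0.99), for Cst7 Cuedc2 (0.96), Sorl1 (0.93) and Ifi27 (0.92), and for Lamp1 Hnrnpf (0.96), Yeats4 (0.95) and Tpm3 (0.95). Among the 6 genes Prf1 and Nkg7 (0.92) and Cst7 and Ctsw (0.84) ran most alike, and Prf1 and Srgn ran apart (-0.77).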

How the data were processed

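RNA and antibody tags were counted in single T cells of 4 libraries. The deposited values are counts of UMIs per gene or tag and barcode, which the authors made with Cell Ranger against mm10, without normalization. Kept cells had 200 to 3000 genes and at most 5% mitochondrial UMIs, the study's limits. Doublets were scored against simulated doublets and 17.3 to 27.7% of tested cells were removed, a high rate. UMIs were summed per library and population and tested with edgeR 4.0.16 in R 4.3.3 (quasi-likelihood test, TMM, filterByExpr, Benjamini-Hochberg adjustment over all genes). A gene was called at an adjusted p under 0.05 with a log2 fold change of 1 or more in size, and interactions the adjusted p alone. Standard errors were derived from the F statistic. Shares were compared at 2000 UMIs per cell by exact permutation tests. The 3' counts were compared within a gene and not between genes.

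The 6 genes, the lists and the tests were chosen with earlier results of these data known. All 6 were tested in each comparison, and so were the pathway list genes that passed the filter on low counts. Of each list at most the 2 highest and 2 lowest calls per population were to be named. Rab27a and the uncalled values of Gzma and Gzmb were named beyond this rule. The tests were checked on simulated counts. Replicate numbers did not pair the libraries (correlation of deviations -0.06, -0.06 and 0.02 in CD4, CD8 and Foxp3 cells). The variance of genes within a group was 1.45 to 2.81 times that of counting alone, so no library was a copy of another. Alternatives were other scalings, DESeq2 1.42.0, filters, gates, doublet rules and left-out libraries. A tag without a name was left out, and 1 gene of the resting cell markers is not reported here.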

Additional observations from a re-analysis of the deposited data

Results flagged for a closer look

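For 4 genes the effect of the knockdown differed between CD8 T cells and CD4 T cells without Foxp3, by the interaction term of edgeR's fit of 12 sums, where 1.08% of all genes had a larger and 1.37% a smaller effect in CD8 T cells. The difference of the log2 fold changes was -1.43 for Cst7 (edgeR adjusted p = 1.1e-13), -1.26 for Nkg7 (edgeR adjusted p = 3.5e-14), -0.44 for Ctsw (edgeR adjusted p = 0.0028) and -0.41 for Prf1 (edgeR adjusted p = 0.025). Each was smaller in CD8 T cells, and none passed without cells with a Ccr7 or Lef1 UMI (-0.40 for Cst7 and -0.30 for Nkg7, edgeR adjusted p = 0.34 and 0.32). All 4 genes had a higher control level there, by log2 values of 1.75 for Cst7, 1.30 for Nkg7, 2.41 for Ctsw and 0.59 for Prf1. Without cells with a Ccr7 or Lef1 UMI these control differences were 0.41, 0.22, 1.93 and -0.03.

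Between Foxp3 cells and the other CD4 T cells the effect differed for Cst7 (-1.23, edgeR adjusted p = 0.00061) and for Srgn (-0.43, edgeR adjusted p = 0.00076), where 0.895% of all genes had a larger and 2.05% a smaller effect in Foxp3 cells. The Foxp3 sums rested on 48 to 94 UMIs of Cst7 and 832 to 1640 UMIs of Srgn per library. Without cells with a Ccr7 or Lef1 UMI the difference for Srgn did not keep its sign (0.11) and that for Cst7 was -0.19 (edgeR adjusted p = 0.89).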

How the results depend on the processing

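Nkg7 was higher in the knockdown in all 3 populations under each of 21 alternatives run. Its log2 fold change ranged from 0.94 to 2.95 in CD4, 0.36 to 1.48 in CD8 and 1.05 to 2.72 in Foxp3 cells. Without cells with a Ccr7 or Lef1 UMI, Nkg7 was no longer called in CD4 and CD8 T cells nor Cst7 in CD4 T cells. Lamp1 was lower under each alternative, from -0.76 to -0.49 in CD4 and -0.58 to -0.27 in CD8 T cells. Prf1 passed the fold limit in CD4 T cells under 7 alternatives, among them no doublet removal (1.02), Scrublet (1.09), total count scaling (1.06), without control library 2 (1.05) and without knockdown library 1 (1.08), and ranged from 0.53 to 1.13. Cst7 in CD8 T cells changed sign under 6 alternatives (-0.11 to 0.14), with no call in any. The cause of these changes was not tested.

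With no fold limit, 6 of the granule genes passed in CD4 T cells and 5 in CD8 T cells, among 3773, 4469 and 57 genes in CD4, CD8 and Foxp3 cells. Without cells with a Ccr7 or Lef1 UMI, 0 of the 6 were called in either (5 and 3 with an unadjusted p under 0.05 by edgeR, and 0 called by DESeq2), among 314 and 192 genes in CD4 and CD8 T cells, against 932 and 974 with all cells, and 15 genes were called in Foxp3 cells. There the Foxp3 interaction of Srgn reversed to 0.11. The 26 genes called in Foxp3 cells became 64 with no doublet removal, 11 with a stricter doublet limit, 64 with Scrublet, 41 with no upper gene limit, 75 with gates by surface tags, 17 with total count scaling, 10 with DESeq2, 42 with no filter on low counts, 16 with at least 2 Foxp3 UMIs and 17 without cells with gamma-delta markers. Nkg7 was called in Foxp3 cells under each of these. Leaving out each library in turn gave 33 to 71 called genes in Foxp3 cells (71 without control library 2), 757 to 984 in CD4 and 783 to 1012 in CD8 T cells, with 2 to 3 granule genes called in CD4 T cells and 1 in the others. Each of these fits leaves 1 library in a group, which is assumed to vary like those of the other group.

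With the replicate number as a block 44 genes were called in Foxp3 cells, 919 in CD4 and 979 in CD8 T cells, and no call of the 6 genes changed. Unthinned, the difference in the share of CD8 T cells with Cst7 turned from 2.17 to -5.58 percentage points. In Foxp3 cells that of Ctsw turned from 0.51 to -2.24 points unthinned and -3.49 with no upper gene limit, and that of Lamp1 from 3.28 to -8.95 unthinned and -0.27 at 1000 UMIs. In Foxp3 cells, 77 to 131 per library, the fit of Prf1 rested on 7 to 11 UMIs per library.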

Other observations

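The LAMP-1 tag was also read in cells with and without an Nkg7 UMI at 2000 RNA UMIs. In CD4 T cells with Nkg7 the tag averaged 4.02 and 3.87 per cell in the controls and 3.90 and 3.26 in the knockdown, against 3.11 and 2.67 and then 3.87 and 2.62 per cell in those without. As a share of all tags (CPM) the order was the other way in all 4 libraries, at 584 and 615 with Nkg7 against 713 and 651 without it in the controls, and 690.3 and 829 against 964 and 952 in the knockdown. CD4 T cells with Nkg7 held more tags of all kinds, 3929 to 6882 per cell against 2754 to 4359. In CD8 T cells the tag stood at 561 and 531 CPM with Nkg7 against 482 and 587 without it in the controls, and at 839 and 819 against 812 and 774 in the knockdown. These values are descriptions of cells within a library, without a test.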
